A study of Mus musculus with 86 samples.

Results

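Genes of the cell cycle and mitosis were followed in mouse hearts of 4 lines, each compared with and without isoproterenol. The members were 50 genes listed by symbol, and each was read from the probe set of its highest mean among all probe sets that the array's annotation gives that symbol. A probe set was found for 49 of the 50 (119 probe sets in all), out of 18193 genes with a probe set of their own. Ccnb1 was not analysed here. The members comprise 10 genes of the G1/S transition and DNA replication, 36 genes of G2, mitosis and cytokinesis, and 3 others (Tk1, Uhrf1 and Stmn1).

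Heart RNA was measured on 85 Affymetrix arrays after 2 arrays with the same values had been averaged. The wild-type lines were FVB, C57BL/6 and B6129SF2/J, and the remaining line is called B2KO in the labels, which do not spell the name out. Mice of each line were assigned at random either to no treatment or to isoproterenol, which activates beta-adrenergic receptors, infused for 14 days at 120 µg per g body weight per day. FVB had 10 untreated and 12 treated arrays, as did B6129SF2/J, while C57BL/6 had 11 untreated and 10 treated arrays and B2KO 10 of each. Per the study's description, the infusion led to systolic dysfunction in FVB and B2KO and to diastolic dysfunction in C57BL/6, which makes the difference between lines the comparison of interest. The labels give heart as the tissue and no age, and the controls are described as having had no treatment. The heart muscle genes Myh6, Tnnt2, Actc1, Tnni3, Ryr2, Myl2 and Myl3 were bright in all groups, with a summed linear intensity from 8277 to 26955 on arrays whose median probe set reads 1.

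Cells enter the cell cycle through D-type cyclins and Cdk4 or Cdk6, which release E2F factors from pocket proteins, and E2F then turns on genes of DNA replication such as the Mcm helicase. Genes of mitosis are turned on later, through CHR elements and CCAAT boxes bound by complexes that contain MuvB, B-Myb, FoxM1 and NF-Y. Most cardiomyocytes of the adult mouse have left the cell cycle, whereas fibroblasts, endothelial cells and leukocytes of the heart can divide. In bulk heart RNA, a change in the number of dividing cells and a change in RNA per dividing cell cannot be told apart.

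In the promoters of the members, CHR and E2F letters differed in frequency between mitotic and G1/S genes, while CCAAT was frequent in both. Windows from 250 bases before to 50 after the start site (RefSeq, GRCm38.p6) were matched by symbol for 42 members, which gave 46 windows because some members have more than 1 start. On either strand, the CHR letters TTTGAA or TTCGAA stood in 78.8% of 33 windows of mitotic members, in 20.0% of 10 windows of G1/S members and in 19.2% of all 32851 windows of the table. The E2F letters TTTNNCGC stood in 5 of the 10 G1/S windows, 6.06% of the mitotic windows and 5.17% of all windows. CCAAT stood in 90.0% of the G1/S windows and 84.8% of the mitotic windows, against 37.4% of all windows, and CHR and CCAAT stood together in 20.0%, 72.7% and 7.52%. A match of letters is a description of the window and not a binding site. The stretches below run 5′ to 3′ from 200 bases before to 30 after the start, with CHR, CCAAT and E2F letters of either strand in capitals, adjoining or overlapping matches included. The first 5 belong to mitotic members whose changes passed the test in at least 2 lines, and the last 2 to G1/S members named for comparison.
Top2a (chr11:99024160-99024389, minus strand): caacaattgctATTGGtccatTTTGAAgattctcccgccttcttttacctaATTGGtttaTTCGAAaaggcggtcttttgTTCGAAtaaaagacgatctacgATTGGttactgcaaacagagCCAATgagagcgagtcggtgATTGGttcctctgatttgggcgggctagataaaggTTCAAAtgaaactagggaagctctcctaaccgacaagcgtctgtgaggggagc
Cdk1 (chr10:69352883-69353112, minus strand): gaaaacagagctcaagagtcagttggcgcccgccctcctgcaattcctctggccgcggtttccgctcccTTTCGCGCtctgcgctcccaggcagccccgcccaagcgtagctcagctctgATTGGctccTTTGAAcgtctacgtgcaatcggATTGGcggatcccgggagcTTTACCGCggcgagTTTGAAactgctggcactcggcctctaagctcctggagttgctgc
Cdc20 (chr4:118437314-118437543, minus strand): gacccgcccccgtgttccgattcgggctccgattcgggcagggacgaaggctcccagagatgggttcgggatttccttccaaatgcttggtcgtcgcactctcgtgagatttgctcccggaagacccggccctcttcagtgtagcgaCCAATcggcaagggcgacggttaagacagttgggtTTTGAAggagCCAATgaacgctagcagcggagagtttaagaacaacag
Prc1 (chr7:80294251-80294480, plus strand): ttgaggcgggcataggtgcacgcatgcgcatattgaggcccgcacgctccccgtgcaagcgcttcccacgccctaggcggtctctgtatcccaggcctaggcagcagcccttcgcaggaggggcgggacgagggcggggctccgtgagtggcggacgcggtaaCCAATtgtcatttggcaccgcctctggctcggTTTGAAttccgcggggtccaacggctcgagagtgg
Cenpf (chr1:189688057-189688286, minus strand): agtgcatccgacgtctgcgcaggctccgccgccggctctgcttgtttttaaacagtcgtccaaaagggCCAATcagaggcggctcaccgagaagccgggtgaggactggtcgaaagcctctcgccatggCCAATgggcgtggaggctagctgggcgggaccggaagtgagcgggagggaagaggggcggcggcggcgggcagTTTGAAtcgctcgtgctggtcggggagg
Mcm3 (chr1:20820283-20820512, minus strand): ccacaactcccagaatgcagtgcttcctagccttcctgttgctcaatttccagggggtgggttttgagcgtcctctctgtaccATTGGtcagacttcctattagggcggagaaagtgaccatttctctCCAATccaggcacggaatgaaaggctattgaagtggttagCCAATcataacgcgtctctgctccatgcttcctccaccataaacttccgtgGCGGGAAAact
Rrm2 (chr12:24708054-24708283, plus strand): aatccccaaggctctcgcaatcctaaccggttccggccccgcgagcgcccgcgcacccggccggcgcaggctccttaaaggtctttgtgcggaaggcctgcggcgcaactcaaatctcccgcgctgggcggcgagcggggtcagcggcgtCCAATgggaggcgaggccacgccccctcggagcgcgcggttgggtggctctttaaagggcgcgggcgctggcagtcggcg
The whole window of Top2a held 4 CHR and 6 CCAAT matches, the most among these 7 genes. Cdk1 carried both motif classes, with 2 CHR, 3 CCAAT and 2 E2F matches. Mcm3 held E2F and CCAAT letters without CHR, and Rrm2 held CCAAT alone. For Birc5, which changed with the mitotic genes, the window held none of the 3 motifs.

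Values are log2 of the linear intensity, so 0 is the median probe set of an array, and a change is the treated minus the untreated group mean ± SE from limma. A change passed where limma's Benjamini-Hochberg adjusted p over all 11962 genes tested was under 0.05. Genes entered the test if at least 1 group mean lay above 0. By this rule 39 of the 49 members were tested, 9 G1/S, 27 mitotic and all 3 others. The 10 members below it were Tyms, Foxm1, Aurka, Nek2, Melk, Bub1, Ttk, Cenpe, Kif20a and Ect2, whose highest group means ran from −1.03 (Ttk) to −0.24 (Cenpe). Because a member could enter through a treated group alone, counts among the 39 are read only against the share of all tested genes, and medians are given over all 49. The labels number the arrays of a group and do not tie each array to a mouse, so p-values measure the spread between these arrays.

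Arrays that stand apart bear on these genes. Treated B2KO replicate 10 had failed, with a median correlation of 0.573 to the other arrays against 0.831 to 0.963. At strain markers, treated FVB replicate 2 was closer to C57BL/6 (distance 0.978) than to FVB (2.74), treated B2KO replicate 7 was also in doubt by strain, and 5 arrays were in doubt by their Gapdh 3′ to 5′ signal. A further 5 arrays were high in thymocyte genes: treated FVB replicates 1, 6 and 7, treated C57BL/6 replicate 7 and untreated B2KO replicate 5. Their linear intensity of Rag1, a recombinase of developing lymphocytes, was 11.3 to 129, against 0.186 to 2.32 on the other 80 arrays. Dntt, a polymerase of developing lymphocytes, read 2.58 to 49.9 there, against 0.146 to 0.968. The whole list of 8 thymocyte genes (Rag1, Dntt, Ptcra, Cd8b1, Cd4, Cd3d, Themis and Arpp21) summed to 23.9 to 298 on these 5 arrays and to 1.81 to 8.07 on the others. The list and the limit of 10 on Rag1 were chosen after seeing the data. The mean over the mitotic members was 0.41 to 2.50 on the 5 arrays and −0.85 to 1.95 on the others, where the highest value was that of treated FVB replicate 8, whose thymocyte genes summed to 1.81. The numbers of members past the threshold in each line, on the mean of the lines and in B2KO against C57BL/6 are therefore also given without them, and without them together with the failed array and both arrays in doubt by strain, which leaves out 8 arrays.

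At baseline the G1/S members were brighter than the mitotic members in every line. The mean over the 10 G1/S members ran from 1.16 to 2.53 on the untreated FVB arrays, with a median of 2.03. The mean over the 36 mitotic members ran from −0.49 to 0.37 on the same arrays, with a median of −0.25. Because probe sets differ in brightness, this difference between genes is a description of the array signal and not of RNA amounts. In untreated hearts 9 of 10 G1/S members had a group mean above 0 in all 4 lines, while 8 (C57BL/6 and B6129SF2/J) to 13 (B2KO) of 36 mitotic members did. With treatment the number of mitotic members above 0 was 27 in FVB, 19 in C57BL/6, 14 in B2KO and 14 in B6129SF2/J.

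**Figure D1:**
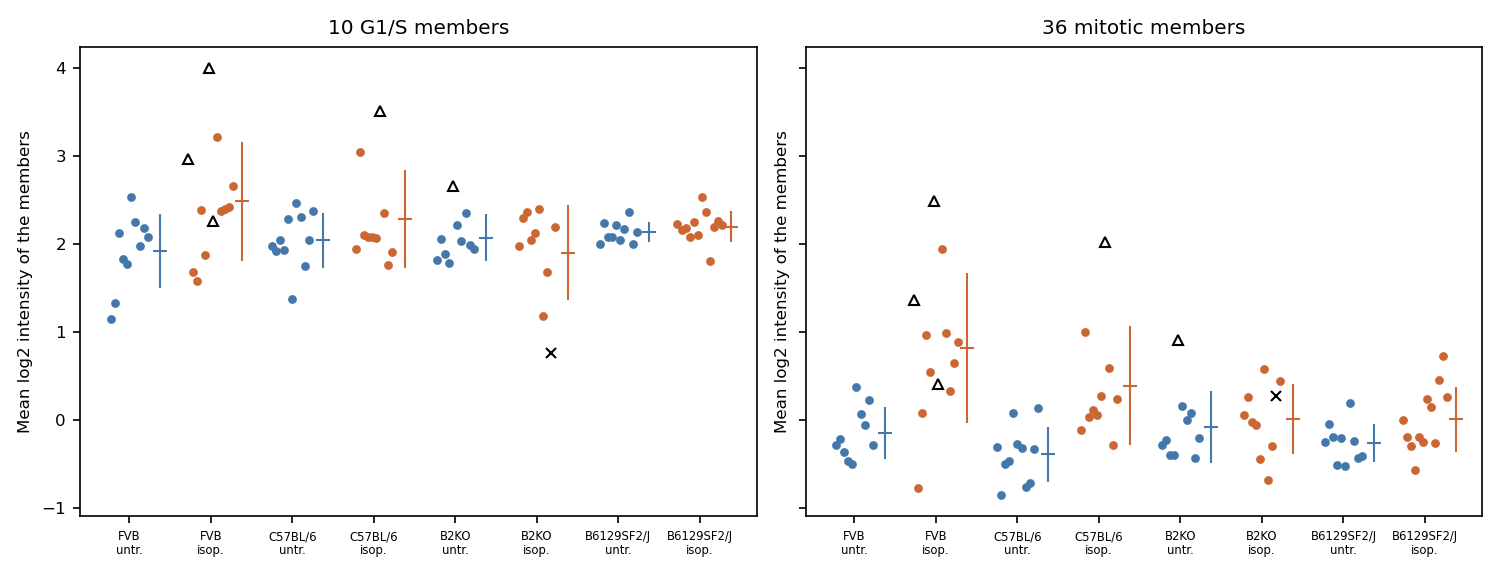
Mean log2 intensity of the 10 G1/S members (left) and the 36 mitotic members (right) on each array, by line and treatment (untr., untreated in blue; isop., isoproterenol in orange). Triangles are the 5 arrays high in thymocyte markers, the cross is the failed array, and bars give mean ± SD over all arrays of the group. Treated FVB and C57BL/6 arrays lie higher in the right panel, and the array of the highest mitotic mean in each of these groups is a triangle.

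In FVB, isoproterenol raised genes of mitosis. There, 11 members were higher, all of them mitotic, and none was lower. Of all genes tested, 0.903% were higher in FVB and 0.61% lower. The median change over 49 members was 0.82 against −0.096 for all genes, with 48 members above 0. It was 0.47 with the probe sets of a gene averaged and 0.50 on the scale of log2(value + 1). In C57BL/6, 14 mitotic members were higher and none lower, where 12.5% of all genes were higher and 6.98% lower, and the median was 0.60 against 0.013, or 0.34 with probe sets averaged and 0.37 as log2(value + 1). In B6129SF2/J 2 mitotic members were higher (2.44% of all genes) and none lower (2.1%), with a median of 0.12. In B2KO no member was higher (0.0836% of all genes) and Cenpa was lower (1.71% of all genes), with a median of 0.13 against −0.10 for all genes. The B2KO median depended on the arrays and the scaling, at 0.015 without the failed array, 0.21 without the 5 arrays high in thymocyte markers, 0.24 with quantile normalization and 0.45 with arrays centred on the genes tested, where that of C57BL/6 was 0.43.

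The counts moved with the arrays that stand apart. Without the 5 arrays high in thymocyte markers, 33 members entered the test, against 39 with all arrays. Cdca3, which passed in C57BL/6 with all arrays, was among those no longer tested. Without the 5 arrays high in thymocyte markers, 5 members stayed past the threshold in FVB (Ccna2, Cenpf, Mki67, Prc1 and Top2a), where 0.559% of all genes were higher, and the median fell from 0.82 to 0.61. In C57BL/6, 9 members stayed (Ccna2, Cdc20, Cdca8, Cdk1, Cenpf, Mki67, Prc1, Top2a and Ube2c), where 13.3% of all genes were higher, and the median fell from 0.60 to 0.43. Without 8 arrays, all 11 members of FVB passed together with Mcm3, Pbk and Ube2c (14, where 2.31% of genes were higher), and 13 of the 14 passed in C57BL/6 (20.4%). In B2KO, Cenpa alone passed without the 5 arrays and no member without 8, and in B6129SF2/J Ccna2 and Cenpf passed in both settings, joined by Cenpa, lower, without 8. The part of thymocyte RNA in the changes measured on all arrays was not tested beyond these counts.

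**Figure D2:**
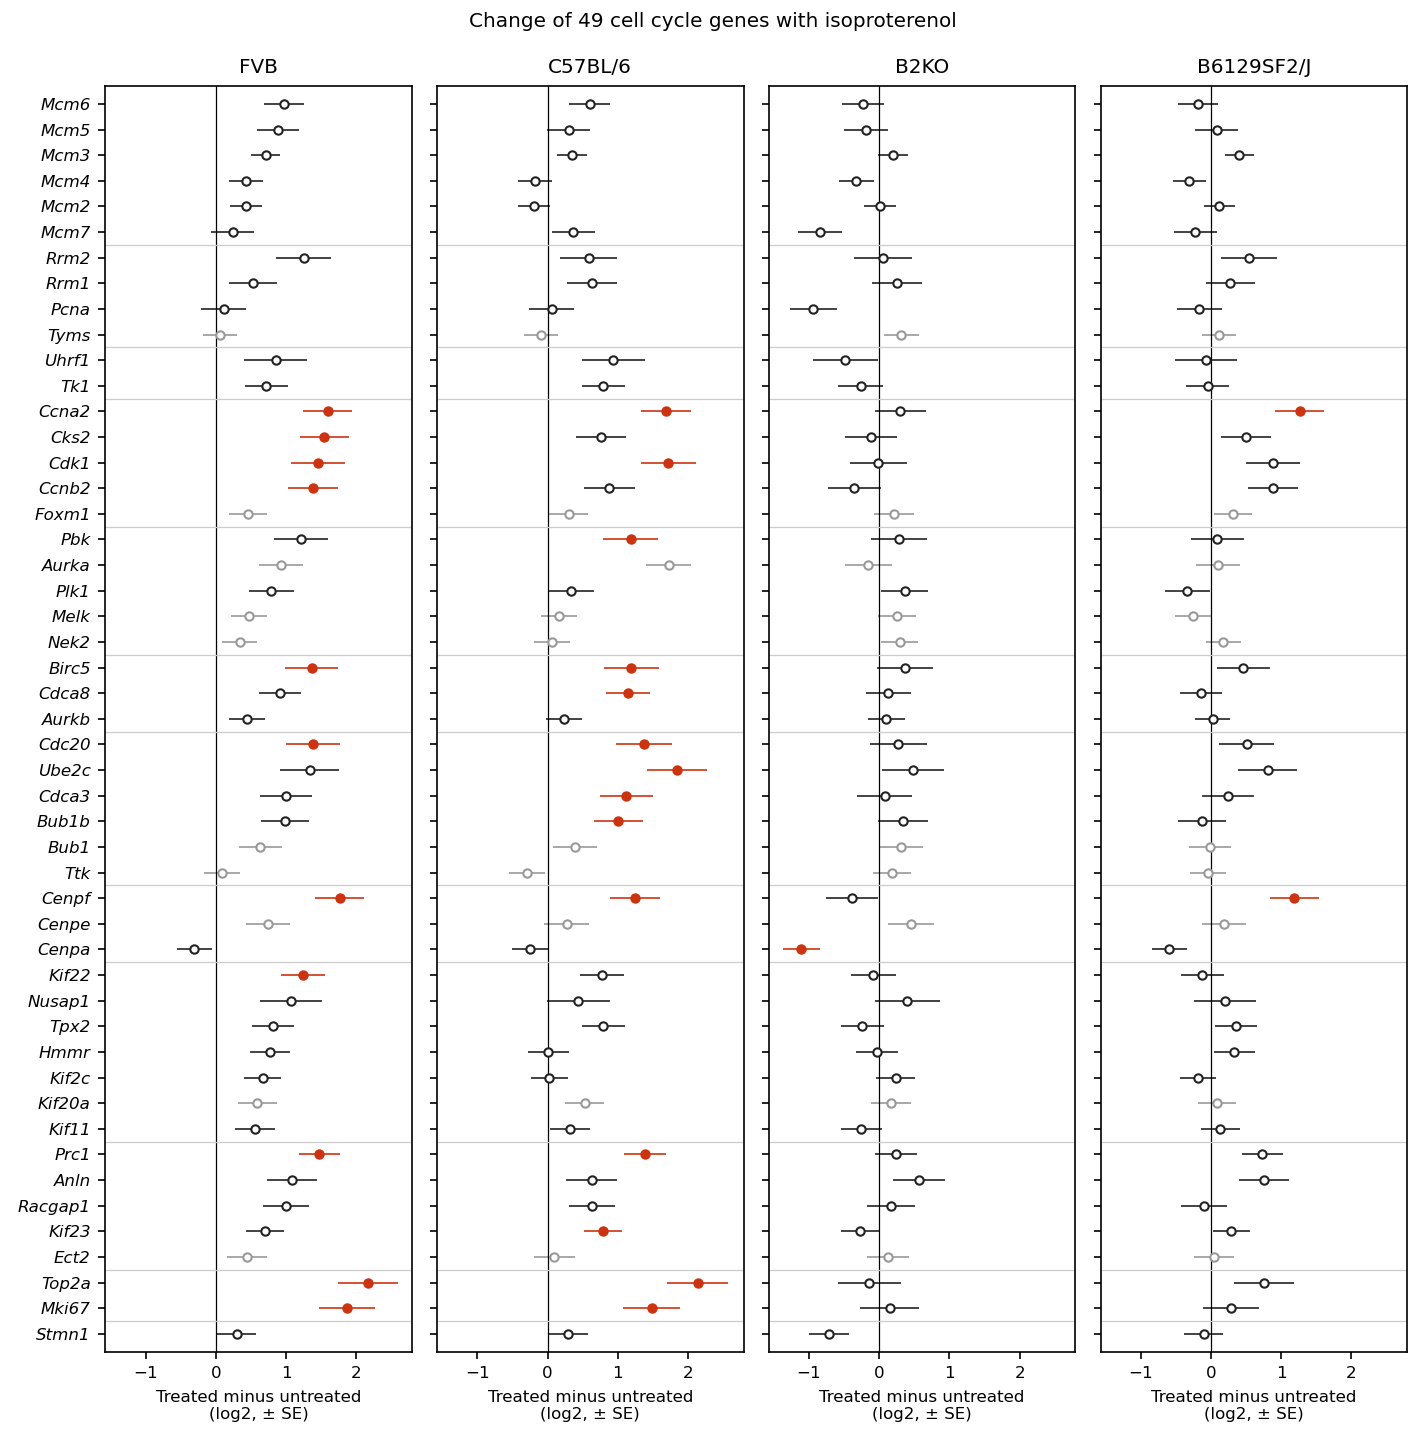
Change with isoproterenol (treated minus untreated, log2, ± SE from limma) of the 49 members in 4 lines, grouped by role from top to bottom: Mcm helicase, replication fork and nucleotides, other S phase, cyclins and Cdk1, mitotic kinases, chromosomal passenger complex, spindle checkpoint and anaphase, centromere, kinesins and spindle, cytokinesis, chromosome structure, Stmn1. Filled red points passed limma's adjusted p of 0.05, open black points did not, and grey points were too dim to be tested. Red points lie in mitotic rows, 11 of 36 in FVB and 14 of 36 in C57BL/6, and are few in B2KO (1) and B6129SF2/J (2).

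Of the chromosome structure genes, Top2a had the largest change of any member in FVB and in C57BL/6. Top2a, the topoisomerase that untangles sister DNA, ranged from −1.62 to 1.12 (median −0.47) on the untreated FVB arrays and from −1.47 to 4.55 (median 2.01) on the treated ones. The groups overlapped, with 10 of 12 treated arrays above the highest untreated array and treated replicate 2 near the lowest. The change was 2.17 ± 0.43 (adjusted p = 0.000892), and 1.83 without the 5 arrays (adjusted p = 0.00884). In C57BL/6, Top2a ranged from −2.40 to 0.78 (median −0.66) untreated and from −0.45 to 4.15 (median 1.29) treated. All 10 treated arrays lay above the untreated mean and 7 above the highest untreated array, for a change of 2.14 ± 0.43 (adjusted p = 0.000188) and 1.84 without the 5 arrays. In B2KO the treated range of −1.46 to 1.38 lay inside the untreated range of −1.16 to 2.66 but for its low end, with a change of −0.14 ± 0.44. The untreated B2KO arrays include replicate 5, 1 of the 5 arrays high in thymocyte markers. The mean over the mitotic members was 0.91 on it, against at most 0.16 on the other untreated B2KO arrays. Without the 5 arrays the Top2a change in B2KO had the opposite sign. In B6129SF2/J the treated arrays ran from −1.27 to 1.72 and the untreated from −1.01 to 1.17, with a change of 0.75 ± 0.43 that did not pass (adjusted p = 0.376). Top2a has 2 other probe sets, with means of −1.27 and −0.71, which changed by −0.18 and −0.06 in FVB. With the 3 probe sets averaged, Top2a did not pass in FVB (adjusted p = 0.0613).

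Mki67, the coat protein of mitotic chromosomes known as Ki-67, ranged from −0.60 to 2.15 (median 0.59) on untreated FVB arrays and from −0.26 to 4.57 (median 2.56) on treated ones. The groups overlapped, with 9 of 12 treated arrays above all untreated arrays. The change was 1.87 ± 0.40 (adjusted p = 0.00305) in FVB and 1.48 ± 0.41 (adjusted p = 0.00611) in C57BL/6, and both passed without the 5 arrays (1.50 and 1.23). In C57BL/6 the untreated arrays ran from −1.78 to 1.50 (median 0.37) and the treated arrays from 0.44 to 4.07 (median 1.57). Mki67 did not pass in B2KO (0.15 ± 0.42) or in B6129SF2/J (0.28 ± 0.40).

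Among cyclins, Cdk1 and their regulators, Ccna2 passed in 3 lines. Ccna2 encodes cyclin A2, which acts in S phase and G2. In FVB it ranged from −1.43 to 1.15 (median −0.17) untreated and from −0.62 to 3.85 (median 1.34) treated, a change of 1.60 ± 0.35 (adjusted p = 0.00382). In C57BL/6 the untreated arrays ran from −1.48 to 0.26 (median −0.75) and the treated arrays from −0.43 to 2.92 (median 1.00). There, 9 of 10 treated arrays lay above the highest untreated array, and the change was 1.69 ± 0.36 (adjusted p = 0.000313). In B6129SF2/J the untreated arrays ran from −1.91 to 0.13 (median −0.90) and the treated arrays from −0.57 to 1.23 (median 0.47). All 12 treated arrays lay above the untreated mean, and the change of 1.26 ± 0.35 passed (adjusted p = 0.0179). It did not pass there with its probe sets averaged (0.85, adjusted p = 0.133) or as log2(value + 1) (0.57, adjusted p = 0.110), and its other probe set changed by 0.44. This line held none of the 5 arrays, and its list of 8 thymocyte genes summed to at most 5.59. Without the 5 arrays Ccna2 still passed in FVB (1.37, adjusted p = 0.0252) and in C57BL/6 (1.48, adjusted p = 0.000869). In B2KO the change was 0.30 ± 0.36, with treated arrays from −0.62 to 1.45 inside the untreated range of −1.23 to 1.47. That untreated range includes replicate 5, 1 of the 5 arrays.

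Cdk1, the kinase that drives entry into mitosis, ranged from −2.26 to 0.63 (median −0.15) on untreated C57BL/6 arrays and from −0.41 to 2.33 (median 1.04) on treated ones. All 10 treated arrays lay above the untreated mean, 7 of them above the whole untreated range. The change was 1.72 ± 0.39 (adjusted p = 0.000861), and 1.59 without the 5 arrays (adjusted p = 0.00256). In FVB, Cdk1 ran from −1.26 to 1.49 (median −0.24) untreated and from −2.09 to 3.10 (median 1.55) treated. The lowest treated value was again that of replicate 2, and the change of 1.46 ± 0.38 (adjusted p = 0.0243) did not pass without the 5 arrays (1.35, adjusted p = 0.0987) but passed without 8 (1.76, adjusted p = 0.00117). The change in B6129SF2/J was 0.88 ± 0.38 (adjusted p = 0.202) and that in B2KO −0.01 ± 0.40. Cks2, a small subunit that binds Cdk1, and Ccnb2, cyclin B2, passed in FVB at 1.55 ± 0.35 (adjusted p = 0.00662) and 1.38 ± 0.36 (adjusted p = 0.0203). Neither passed in C57BL/6. Foxm1, a transcription factor for mitotic genes, was too dim to be tested.

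**Figure D3:**
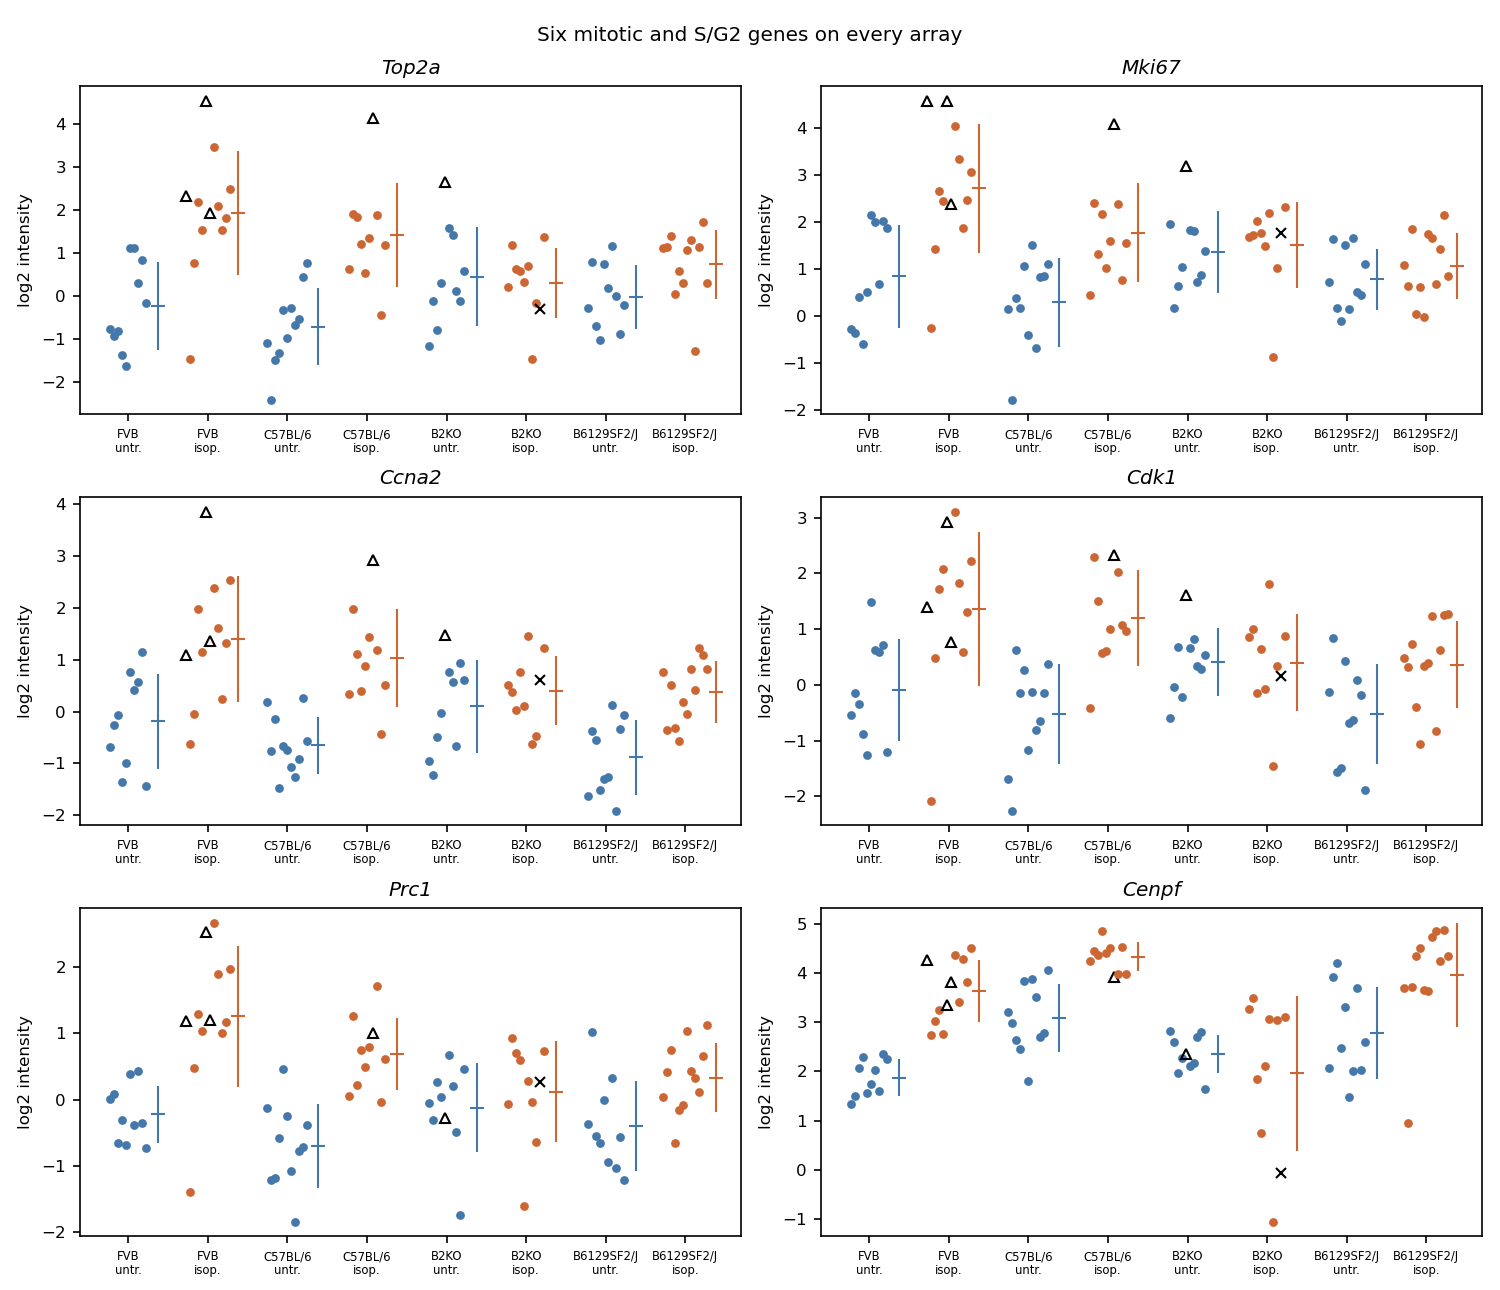
Log2 intensity of Top2a, Mki67, Ccna2, Cdk1, Prc1 and Cenpf on each array, by line and treatment (untr., untreated in blue; isop., isoproterenol in orange). Triangles mark the 5 arrays high in thymocyte markers, the cross the failed array, and bars give mean ± SD over all arrays of the group. The treated circles of FVB and C57BL/6 lie mostly above the untreated mean of their line without the triangles too, and the Cenpf groups of FVB do not overlap.

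Cenpf, a large kinetochore protein, was the member whose FVB groups did not overlap. The share of all genes without overlap in FVB is not given here, so this describes Cenpf alone. Untreated FVB arrays ran from 1.33 to 2.36 (median 1.89) and treated arrays from 2.75 to 4.52 (median 3.62), a change of 1.76 ± 0.35 (adjusted p = 0.00105). In C57BL/6 the untreated arrays ran from 1.81 to 4.08 (median 2.99) and the treated arrays from 3.93 to 4.87 (median 4.39). A single untreated array lay above the lowest treated one, and the change was 1.25 ± 0.36 (adjusted p = 0.00833). In B6129SF2/J it was 1.19 ± 0.35 (adjusted p = 0.0299), with 11 of 12 treated arrays above the untreated mean and treated arrays from 0.95 to 4.87 over untreated arrays from 1.48 to 4.21. Leaving out any of 8 arrays of that line in turn (untreated 1, 4, 6, 7 and 9, treated 8, 9 and 11) ended the call of Cenpf there, which left Ccna2 alone. Without the 5 arrays the changes were 1.71 in FVB and 1.29 in C57BL/6, and both passed. In B2KO treated arrays spread from −1.06 to 3.50 around untreated arrays from 1.65 to 2.83, with a change of −0.39 ± 0.37. Cenpf has 2 dimmer probe sets (means −1.52 and −1.41) that changed by 0.36 and −0.15 in FVB, and with probe sets averaged it did not pass in FVB.

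Cenpa, the histone variant of centromeres, had changes below 0 in all 4 lines on the probe set used. It was bright, with untreated group means from 4.03 to 4.59. In B2KO it ranged from 3.55 to 4.82 (median 4.49) untreated and from 0.06 to 4.01 (median 3.67) treated, where the lowest value is that of the failed array and the next is 3.17. The groups overlapped, and the change of −1.11 ± 0.26 (adjusted p = 0.0164) became −0.75 without the failed array (adjusted p = 0.0813), where 0.251% of all genes were lower. In the other lines it did not pass (−0.59 in B6129SF2/J, −0.30 in FVB and −0.25 in C57BL/6). Its dimmer probe sets (means −0.34 and −2.27) changed by −1.08 and 0.47 in B2KO and by −1.66 and −0.14 in B6129SF2/J. In FVB they changed by 0.10 and −0.55 and in C57BL/6 by 0.20 and −1.25. With probe sets averaged, Cenpa did not pass in B2KO. On the mean of the 4 lines Cenpa was lower by −0.56 ± 0.13 (adjusted p = 0.00064).

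Of the 6 members of the spindle checkpoint and anaphase promotion, 4 passed in C57BL/6 (12.5% of all genes were higher), and Bub1 (0.39) and Ttk (−0.30) were too dim to be tested. Cdc20, which activates the anaphase-promoting complex, ranged from −0.49 to 1.43 (median 0.80) untreated and from 0.40 to 3.53 (median 1.85) treated. The groups overlapped, with 7 of 10 treated arrays above all untreated arrays, and the change was 1.37 ± 0.40 (adjusted p = 0.00932). Ube2c, the ubiquitin-conjugating enzyme of that complex, rose by 1.85 ± 0.43 (adjusted p = 0.00108), Cdca3 by 1.12 ± 0.38 (adjusted p = 0.0262) and the checkpoint kinase Bub1b by 1.01 ± 0.35 (adjusted p = 0.0317). Cdc20 and Ube2c passed without the 5 arrays, Bub1b did not (0.83, adjusted p = 0.0649), and Cdca3 then fell below the filter. In FVB, Cdc20 was the member of this role that passed, with untreated arrays from −0.45 to 2.08 (median 1.15) and treated arrays from −1.24 to 4.20 (median 2.50). Its change of 1.39 ± 0.39 (adjusted p = 0.0436) did not pass without the 5 arrays (1.06, adjusted p = 0.253). With each array left out in turn, Cdc20 passed in FVB in 8 of 22 fits, and it did not pass there with a replicate block or with no filter. In B2KO and B6129SF2/J Cdc20 changed by 0.27 ± 0.41 and 0.51 ± 0.39, and neither passed.

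Of the chromosomal passenger complex, which corrects the attachment of chromosomes to the spindle, Birc5 (survivin) passed in both FVB and C57BL/6. In FVB it ran from −1.38 to 0.22 (median −0.61) untreated and from −1.30 to 3.52 (median 0.90) treated, and 9 of 12 treated arrays lay above all untreated arrays. The change was 1.37 ± 0.38 (adjusted p = 0.042) in FVB and 1.19 ± 0.39 (adjusted p = 0.0212) in C57BL/6, where untreated arrays ran from −2.08 to 0.61 and treated arrays from −1.12 to 2.76. Neither passed without the 5 arrays (0.97 and 0.89, adjusted p = 0.234 and 0.0545). With each array left out in turn, Birc5 passed in FVB in 8 of 22 fits, and it did not pass there with a replicate block or with no filter. Cdca8 (borealin) rose in C57BL/6 by 1.14 ± 0.31 (adjusted p = 0.00501), while Aurkb, the kinase of the complex, changed by 0.23 there and did not pass.

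Of the cytokinesis genes, Prc1, which bundles microtubules at the spindle midzone, passed in FVB and C57BL/6. In FVB it ran from −0.74 to 0.44 (median −0.33) untreated and from −1.39 to 2.67 (median 1.20) treated. Of 12 treated arrays, 11 lay above all untreated arrays, and replicate 2 lay below them all. The change was 1.48 ± 0.29 (adjusted p = 0.000949) in FVB and 1.39 ± 0.30 (adjusted p = 0.000405) in C57BL/6, where untreated arrays ran from −1.84 to 0.46 and treated arrays from −0.04 to 1.71. It moved little without the 5 arrays (1.35 in both lines) and still passed in both. Kif23, a kinesin of the midzone, rose in C57BL/6 by 0.79 ± 0.27 (adjusted p = 0.0289), whereas Anln and Racgap1 did not pass in any of the 4 lines.

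Of the kinesins and spindle genes, Kif22 passed in FVB, at 1.24 ± 0.31 (adjusted p = 0.0154), and none of 6 passed in C57BL/6. Of the mitotic kinases, Pbk passed in C57BL/6 at 1.19 ± 0.39 (adjusted p = 0.0218). Aurka, a kinase of spindle poles, had a change of 1.72 ± 0.32 in C57BL/6, from a group mean of −2.05 to −0.33, but lay below the filter. With every gene tested regardless of brightness it passed there, with an adjusted p of 7.43e-05.

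Over the 10 G1/S members the median change was 0.48 in FVB and 0.33 in C57BL/6, against 0.96 and 0.77 for the 36 mitotic members. Of 9 tested, none passed by limma's adjusted p in any line with all arrays. Without 8 arrays Mcm3 passed in FVB, where 2.31% of all genes were higher. At an unadjusted p under 0.05, 4 were higher in FVB (6.32% of all genes), 1 in C57BL/6 (20.5%), 2 were lower in B2KO (22.5%), and none differed in B6129SF2/J (8.36% higher, 8.23% lower). Of the Mcm helicase genes, which license replication origins, Mcm3 had the highest change on the mean of the lines and Mcm7 the lowest, while in FVB the highest were Mcm6 (0.97) and Mcm5 (0.88). Mcm3 ran from 0.28 to 1.94 (median 1.48) on untreated FVB arrays and from 1.35 to 3.40 (median 1.94) on treated ones. All 12 treated arrays lay above the untreated mean and 6 above the untreated range, with a change of 0.71 ± 0.21 (adjusted p = 0.0568). It was 0.35 ± 0.21 in C57BL/6, 0.19 ± 0.22 in B2KO and 0.40 ± 0.21 in B6129SF2/J. The other Mcm3 probe sets (means −1.13, −0.39, −0.33 and 1.25) changed by 0.23, 0.85, 1.15 and 0.13 in C57BL/6. There, Mcm2 changed by −0.19 on the probe set used and by 0.80 on its other one, and Mcm4 by −0.17 and −0.59. With probe sets averaged, the G1/S median was 0.25 in C57BL/6 and 0.33 in FVB. Mcm7 ran from 1.86 to 4.51 untreated and from 2.55 to 5.07 treated in FVB, with a change of 0.24 ± 0.30, and changed by −0.84 ± 0.32 in B2KO (adjusted p = 0.108), or −0.51 without the failed array.

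Of the fork and nucleotide genes, Rrm2, a subunit of ribonucleotide reductase, had the highest change on the mean of the lines. In FVB it ran from −0.15 to 1.53 (median 0.60) untreated and from −0.19 to 4.86 (median 1.64) treated. The highest treated values lay far above the untreated range, yet the change of 1.25 ± 0.40 did not pass (adjusted p = 0.0941) and was 0.74 without the 5 arrays. Pcna, the sliding clamp of DNA polymerase, was the brightest of the named members and had the lowest signed change of its role on that mean (−0.23). In FVB it ran from 4.65 to 6.79 (median 6.30) untreated and from 4.87 to 7.38 (median 6.37) treated, with a change of 0.11 ± 0.32. In B2KO it ran from 5.76 to 7.24 untreated and from 0.33 to 6.79 treated, or from 5.03 without the failed array, and its change of −0.94 ± 0.33 (adjusted p = 0.0937) became −0.38.

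The median change of the G1/S members minus that of the mitotic members was −0.48 in FVB, −0.44 in C57BL/6, −0.26 in B2KO and −0.10 in B6129SF2/J, a description with no test. Read as log2(value + 1), which presses down dim genes, the difference was −0.14 in FVB and −0.17 in C57BL/6, and with probe sets averaged it was −0.19 and −0.20. Without the 5 arrays high in thymocyte markers it was −0.27 in FVB and −0.43 in C57BL/6, and without the failed array −0.16 in B2KO. The difference between the groups was not tested. The mitotic members were the dimmer ones and G1/S members the brighter, so the log2 scale bears on this difference. In B2KO the median of the G1/S members was −0.09 and changed sign under quantile normalization (0.16), with arrays centred on the genes tested (0.23) and without the failed array and both arrays in doubt by strain (0.06).

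**Figure D4:**
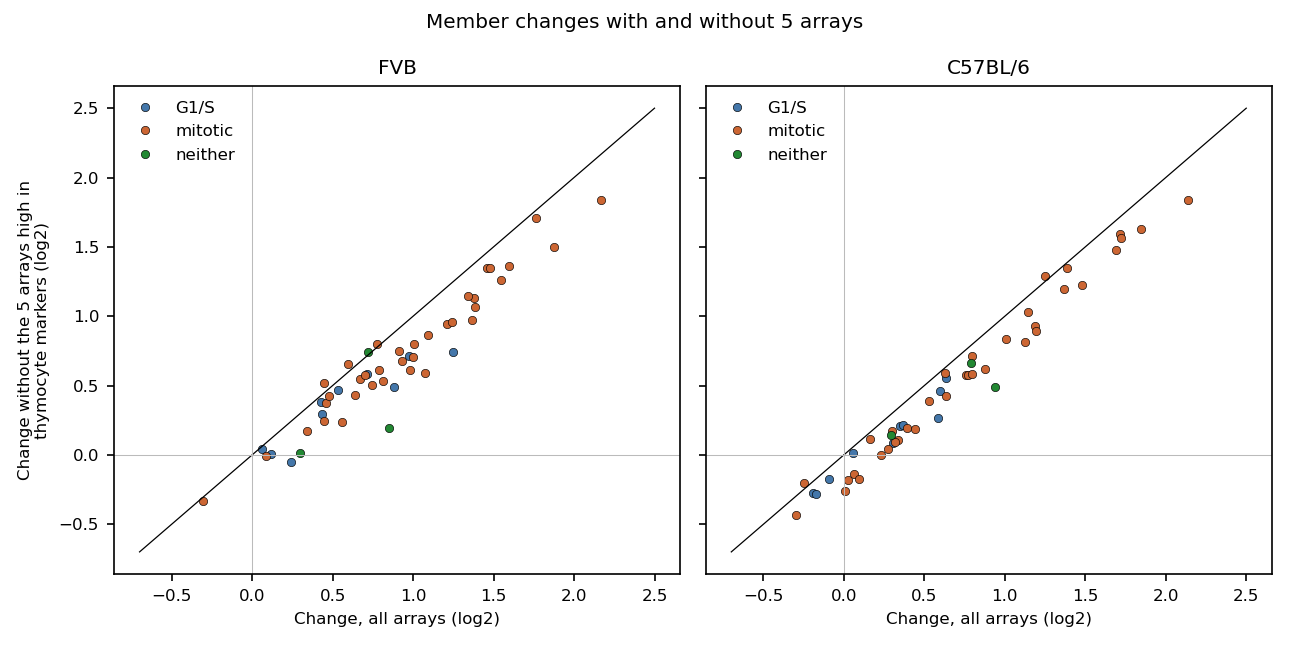
Change with isoproterenol of the 49 members with all arrays (horizontal) and without the 5 arrays high in thymocyte markers (vertical), both log2, in FVB and C57BL/6. The line marks equal values; 45 of 49 points in FVB and 47 of 49 in C57BL/6 lie below it, and Top2a, the farthest right in both panels, goes from 2.17 to 1.83 in FVB and from 2.14 to 1.84 in C57BL/6.

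Averaged over the 4 lines, 21 members were higher (8.46% of all genes) and Cenpa was lower (13.5% of all genes). The largest were Top2a at 1.23 ± 0.22, Ccna2 at 1.21 ± 0.18 and Ube2c at 1.12 ± 0.21. Mcm3 (0.42 ± 0.11, adjusted p = 0.0024) and Rrm2 (0.61 ± 0.20, adjusted p = 0.0213) were the G1/S members among them. Without the 5 arrays 18 of the members were higher (7.75% of all genes), Mcm3 and Rrm2 included, and without 8 arrays 21 members were (16.3%). Of the 11 members higher in FVB and the 14 higher in C57BL/6, 8 were in both lists: Birc5, Ccna2, Cdc20, Cdk1, Cenpf, Mki67, Prc1 and Top2a. These 8 were 8 of 11 members in FVB and 8 of 14 in C57BL/6, and 17 members were higher in at least 1 line. Ccna2 and Cenpf were higher in 3 lines. The shares of all genes higher in both lines, in at least 1 line or in 3 lines are not given here. These counts therefore only describe the members.

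The effects in the lines were then set against each other. FVB and C57BL/6, in which the study reports different kinds of dysfunction, did not differ in any of the 39 members by limma's adjusted p, where 0.669% of all genes were higher and 1.03% lower, nor by an unadjusted p under 0.05 (5.53% higher and 9.56% lower). The difference of the Top2a changes was 0.03 ± 0.61 and that of the Mki67 changes 0.39 ± 0.57, so differences of about 1 log2 unit lie within 2 SE. Between B2KO and C57BL/6, 3 of 39 members differed, a share near that of all genes (8.93% lower and 1.61% higher), and all had lower changes in B2KO: Top2a by −2.28 ± 0.62 (adjusted p = 0.0146), Cdk1 by −1.73 ± 0.56 (adjusted p = 0.0365) and Cenpf by −1.64 ± 0.51 (adjusted p = 0.0306). At strain markers B2KO lay near FVB (distance 0.428) and far from C57BL/6 (2.86). A trait of B2KO itself and its strain background therefore cannot be told apart in this comparison. Without the failed array Top2a passed (adjusted p = 0.027) and Cdk1 and Cenpf did not (adjusted p = 0.0586 and 0.0742). Without the 5 arrays high in thymocyte markers Top2a (−1.73) and Cenpf (−1.68) passed and Cdk1 did not (−1.47, adjusted p = 0.0686). None of the 3 passed with arrays centred on the genes tested (Top2a −1.79, adjusted p = 0.0549; Top2a was −0.71 with probe sets averaged), without 8 arrays (Top2a −1.43, adjusted p = 0.0819, 4.67% of all genes lower), or without the failed array and the 5 arrays high in thymocyte markers, where Top2a differed by −1.66 (adjusted p = 0.062) and 5.73% of all genes were lower.

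The remaining differences between effects held no member past the threshold. For B2KO minus FVB, 22 members were lower at an unadjusted p under 0.05 (8.18% of all genes) and no gene passed limma's adjusted p (0% in either direction), with Top2a at −2.31 ± 0.62 (adjusted p = 0.496) and Cenpf at −2.15 ± 0.51. For B6129SF2/J, 12 members were lower than in FVB at an unadjusted p under 0.05 (2.32% of all genes), 6 were lower than in C57BL/6 (12.4%), and 2 were higher than in B2KO (9.71%). By limma's adjusted p, 0.00836% of all genes passed in each direction against FVB, 2.39% were higher and 3.27% lower against C57BL/6, and 0.0752% were higher and 0.0167% lower against B2KO. For the mean of FVB and B2KO minus C57BL/6, the lines of systolic against diastolic dysfunction, 2 were lower at an unadjusted p under 0.05 (20% of all genes), with 2.01% of all genes higher and 6.84% lower by limma's adjusted p. These comparisons share arrays with each other, so their counts are not independent.

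Untreated lines differed in few members. Mcm6 was lower than in C57BL/6 by −1.19 ± 0.29 in FVB (adjusted p = 0.00254) and by −0.97 ± 0.29 in B2KO (adjusted p = 0.0187). Its untreated arrays ran from 0.47 to 2.64 in FVB, from 0.72 to 2.39 in B2KO and from 1.11 to 3.81 in C57BL/6, so the groups overlapped. Cenpf was lower in FVB by −1.21 ± 0.36 (adjusted p = 0.0146), where 7.81% of all genes were lower and 4.4% higher. The part of sequence differences between strains under the probes was not tested. Stmn1, a microtubule destabiliser, was higher in B2KO by 1.22 ± 0.28 (adjusted p = 0.00137), where 4.65% of genes were higher and 5.28% lower. With probe sets averaged, neither Stmn1 in B2KO (adjusted p = 0.375) nor Cenpf in FVB (adjusted p = 0.279) passed. Untreated B6129SF2/J held no such member by limma's adjusted p (3.59% of genes higher, 4.08% lower) and 1, lower, at an unadjusted p under 0.05 (9.34%).

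Other cell cycle genes were read from 84 measured genes in 5 lists, 3 of regulators and 2 of further replication and mitotic genes. Of 6 tested CDK inhibitors, Cdkn1c (p57) was lower in FVB by −1.17 ± 0.27 (adjusted p = 0.00678, where 0.61% of all genes were lower), in B2KO by −1.16 ± 0.28 (adjusted p = 0.0197, and 0.0991 without the failed array) and in B6129SF2/J by −0.88 ± 0.27 (adjusted p = 0.0406, where 2.1% were lower). In C57BL/6 the inhibitor that passed was Cdkn1a (p21), higher by 1.66 ± 0.38 (adjusted p = 0.000988). Of 10 G1 cyclins and kinases, Ccnd1 (0.83 ± 0.25) and Ccnd3 (1.23 ± 0.39), which encode D-type cyclins, were higher in C57BL/6, where 12.5% of all genes were, and none passed elsewhere.

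Of 14 tested E2F, pocket protein and DREAM genes, E2f1, an activator of G1/S genes, was higher in C57BL/6 (1.21 ± 0.26, adjusted p = 0.000489). E2f5, a partner of pocket proteins, was lower there by −1.57 ± 0.38, and so were 3 subunits of MuvB: Lin52 by −1.23 ± 0.26, Lin9 by −1.04 ± 0.27 and Lin54 by −0.74 ± 0.27 (6.98% of all genes were lower). No gene of this group passed in the other lines. Of 21 tested mitotic genes outside the members, Ckap2, a spindle protein, was higher in FVB (1.51 ± 0.34, adjusted p = 0.00492) and in C57BL/6 (1.35 ± 0.34, adjusted p = 0.00287). Separase (Espl1, 1.24 ± 0.32), the condensin subunit Ncapg (1.14 ± 0.32) and Gtse1 (0.88 ± 0.25) were also higher in C57BL/6 (4 of 21, against 12.5% of all genes), where the kinesins Kif15 (−1.26 ± 0.31) and Kif18b (−0.97 ± 0.33) were lower. Of 12 tested replication genes outside the members, Pola1, the catalytic subunit of DNA polymerase alpha, was lower in C57BL/6 by −0.69 ± 0.24 and none passed in the other lines.

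Markers of other cell types were read on the same arrays. Of 5 measured erythroid genes 2 were tested, and in FVB both were higher, Alas2 by 1.96 ± 0.52 and Slc4a1 by 1.46 ± 0.39. Their list summed to 8.47 to 119 untreated and 11.6 to 288 treated in FVB, and to 18.5 to 133 and 59.5 to 190 in C57BL/6, where Alas2 was higher by 1.50 ± 0.53. The erythroid sum ran from 7.09 to 117 untreated and 5.42 to 303 treated in B2KO, and from 22.9 to 72.6 and 23.2 to 172 in B6129SF2/J. Its median went from 24.6 to 117 in FVB, 44.9 to 116 in C57BL/6, 37 to 61.4 in B2KO and 42.3 to 47.2 in B6129SF2/J. Of 7 fibroblast genes, Col3a1 was higher in FVB (1.06 ± 0.22), C57BL/6 (1.03 ± 0.23) and B6129SF2/J (1.08 ± 0.22), and Col1a1 and Col1a2 were also higher in C57BL/6. The fibroblast sum ran from 566 to 1453 untreated and 788 to 2684 treated in FVB, and from 498 to 1505 and 968 to 3098 in C57BL/6. It ran from 906 to 1170 untreated and 1110 to 2634 treated in B6129SF2/J, and had medians of 997 and 1439 in B2KO, lines with few members past the threshold. The median of the macrophage and monocyte sum went from 269 to 351 with treatment of FVB, from 273 to 367 for C57BL/6, from 226 to 269 for B2KO and from 234 to 360 for B6129SF2/J. That of the mural sum went from 724 to 882 for FVB, 705 to 1091 for C57BL/6, 775 to 770 for B2KO and 951 to 1115 for B6129SF2/J. The neutrophil sum was dim, with untreated medians from 3.17 (B6129SF2/J) to 6.94 (FVB) and treated medians from 5.64 (B6129SF2/J) to 10.2 (FVB). Of 7 endothelial genes, Pecam1, Cdh5, Kdr and Cldn5 were higher in C57BL/6, where 12.5% of all genes were, and none passed in the other lines. None of the 6 tested lymphocyte genes passed in FVB or C57BL/6, although their list summed to 110 on treated FVB replicate 6 and to 109 on treated C57BL/6 replicate 7, against at most 23.7 and 44.3 on untreated arrays of these lines. The lymphocyte list was highest on an untreated B6129SF2/J array (259), in a group whose mitotic means ran from −0.51 to 0.20, and Cd79a, Cd79b and Ighm, genes of B cells, were lower with treatment in that line. The part of erythroid, fibroblast, endothelial, mural and leukocyte RNA in the members' changes was not tested.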

How the data were processed

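Heart RNA was hybridised to 86 Affymetrix arrays. The authors deposited linear intensities made with GCRMA, per the submitters' processing notes; its version and settings are not given in the sources used here. Each array's median intensity was 1. The deposited intensities were read as log2. Treated B2KO replicates 4 and 9 agreed at r = 0.99999976 (the next pair of arrays at 0.982) and were averaged, which left 85 arrays. Of 45101 probe sets, 34945 carry 1 gene symbol, 932 several and 9160 none, and only the first were used. Each of 18193 genes was read from its probe set of highest mean. Genes with a group mean above 0 (log2) were tested with limma 3.58.1 in R 4.3.3, in 1 fit over 8 groups, two-sided, with Benjamini-Hochberg adjustment over all 11962 genes tested, after a test on simulated data.

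The members and gene lists were chosen with earlier results of these data known. Level values are given for Top2a, Mki67, Ccna2 and Cdk1, for members past the threshold in at least 2 lines or in an interaction, and for the G1/S members of highest and lowest signed mean effect in each role. Changes of other members past the threshold are given without array values. Same-numbered arrays were checked for pairing and did not pair (correlations from −0.384 to 0.221). Of the members, 6 were read from probe sets of a kind (x_at) that can share probes with other genes. Another 8, Mcm3 and Mcm7 among them, were read from a kind (s_at) that can match more than 1 transcript. The number of arrays limits the precision.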

Additional observations from a re-analysis of the deposited data

Results flagged for a closer look

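Among 75 groups of array values tested with Dixon's limits, 8 had an array far from the others, where chance gives about 1 in 20. The groups of 11 or 12 arrays (treated FVB, untreated C57BL/6 and treated B6129SF2/J) were not tested in this way. The lack of a flag there is therefore no result. Top2a read 4.15 on treated C57BL/6 replicate 7, and the mean over the mitotic members was 0.912 on untreated B2KO replicate 5, both among the 5 arrays high in thymocyte markers. Failed array B2KO treated replicate 10 gave Mcm7 at −0.132, Pcna at 0.334 and a G1/S minus mitotic mean of 0.488. Mki67 at −0.875 and Rrm2 at −0.892 came from treated B2KO replicate 7, which was in doubt by strain. Prc1 read −1.75 on untreated B2KO replicate 9.

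The isoproterenol effect differed between B2KO and C57BL/6, by limma's interaction contrast, for Top2a (−2.28), Cdk1 (−1.73) and Cenpf (−1.64). These are 3 of 39 members, where 8.93% of all genes were lower. B2KO lay near FVB at strain markers, so a trait of B2KO itself and its strain background cannot be told apart here. Cdk1 passed in 6 of 15 alternatives and Cenpf in 7 of 16, and none of the 3 passed without the failed array and the 5 arrays high in thymocyte markers.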

How the results depend on the processing

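Counts of members past the threshold moved by over 1.5 times under these alternatives. The share of all genes moved too. In FVB 0.903% were higher, 0.559% without the 5 arrays high in thymocyte markers and 2.31% without these and 3 others. For C57BL/6 the shares were 12.5%, 13.3% and 20.4%. Shares for most other settings are not given here, so the counts are not read as changes of the members alone. In FVB (11) the count was 4 with a stricter filter on dim genes, 6 with only the arrays of the line in the fit, 24 with array weights, 21 without the failed array and both arrays in doubt by strain, and 20 without these and the 5 arrays in doubt by Gapdh. It was 5 without the 5 arrays high in thymocyte markers and 6 without these and the failed array. In C57BL/6 (14) it was 4 with the stricter filter and 9 without the 5 arrays. In B2KO (1) it was 0 with probe sets averaged, with only its own arrays, without the failed array alone or with arrays in doubt by strain or Gapdh, and without the 5 arrays and 3 others (failed and strain), but 1 without the 5 and the failed array. In B6129SF2/J (2) it was 1 with the stricter filter or log2(value + 1), 6 with array weights and 7 with only its own arrays. On the mean of 4 lines (22) it was 7 with the stricter filter. For B2KO minus C57BL/6 (3) it was 0 with centring, 0 without the 5 arrays and the failed array, and 1 with the stricter filter, only these lines, or without the failed array. For the interactions with 0 members, B6129SF2/J minus C57BL/6 reached 1 or 2 in 7 alternatives, array weights gave 1 (B2KO minus FVB), 3 (B6129SF2/J minus FVB) and 2 (B6129SF2/J minus B2KO), and no filter gave 1 for FVB and B2KO minus C57BL/6. Untreated FVB (2) ranged from 1 (probe sets averaged) to 4 (centring, array weights, or without the failed array alone or with others), and 5 or 7 without the 5 arrays and others. Untreated B2KO (2) gave 1 with probe sets averaged, 12 with array weights, and 4 or 6 without arrays in doubt. The FVB difference of G1/S and mitotic medians went from −0.48 to −0.14 with log2(value + 1). The cause was not tested.

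Leaving out each array in turn gave 7 to 20 members in FVB (7 without untreated 1, 2 or 4 or treated 6 or 8, 20 without treated 2), 9 to 16 in C57BL/6 (9 without treated 7), 0 to 2 in B2KO (0 without treated 10, 2 without treated 6) and 1 to 2 in B6129SF2/J. With a replicate block the counts were 9, 14, 1 and 2, and 22 on the mean of lines. Shares of all genes are not given for these fits, so the counts are not read as changes of the members alone. An array correlated best with its own number in at most 1 pair of a line. Centring on the genes tested moved the median of all genes from 0.013 to −0.15 in C57BL/6 and from −0.10 to 0.22 in B2KO, where the members' medians became 0.43 and 0.45. With probe sets averaged, the B6129SF2/J median of G1/S members was −0.064 against 0.097.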
